A study of Mus musculus with 6 samples.

Results

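The liver answers infection and tissue injury with the acute phase response, in which it changes the set of proteins that it secretes into blood. The 39 genes followed here are acute phase proteins and the interleukin-6 (IL-6) and interleukin-1 (IL-1) signalling genes that act on them, taken as a fixed list of gene symbols. A gene was measured where a probe set of the Affymetrix mouse genome array is annotated with that symbol and no other, and the probe set with the highest mean over the 6 arrays stood for it. This gave 36 of the 39 genes, out of 18193 genes with such a probe set, and all 36 were among the 12705 genes bright enough to be tested (a mean log2 signal above 5.63). Serpina3g, Serpina3k and Serpina3m were not analysed here. The livers came from 3 Retnla-Tg mice, numbered 5, 6 and 7, which carry a transgene for the resistin-like protein Retnla, and from 3 Retnla-non-Tg mice, numbered 1, 2 and 3, without it. All 6 were males aged 3 months on a C57BL6/J background, and all had been moved from standard diet at 8 weeks of age to a high-fat diet (HFD) with 21% fat and 0.15% cholesterol for 4 weeks, so no liver on standard diet enters the comparison. The sources used here do not give the promoter that drives the transgene or the number of founder lines, and do not say whether the animals were littermates.

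IL-6 binds its receptor Il6ra on hepatocytes, and the complex joins the shared receptor chain gp130, the product of Il6st, which activates the transcription factor Stat3. Together with C/EBP factors and with NF-kappaB signals from the IL-1 receptor, Stat3 turns on the positive acute phase genes, while transcripts of negative acute phase proteins such as albumin go down; Socs3 feeds back on the receptor. Glucocorticoids strengthen the response in hepatocytes. The members were read by role as 20 positive acute phase genes, 4 that are constitutive or mixed in mice, 4 negative ones and 8 signalling genes.

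Retnla, the check of the labels, had a log2 signal of 15.91 to 16.04 in the Tg livers and 6.03 to 7.41 in the non-Tg livers. The hepatocyte markers Alb, Apoa1, Apob, Cps1 and Fabp1 lay between 15.12 and 16.80 on every array, as fits the labelled tissue. Of the other listed markers with a probe set, Ttr and Cyp2e1 lay in that range too. Hnf4a was lower, at 13.71 to 13.98, and so was Ass1, at 9.0 to 10.4. By their bioC spike-in control the arrays formed 2 sets, at a log2 mean of 9.83 to 9.94 (non-Tg 1, Tg 5 and Tg 6) and 11.21 to 11.45 (non-Tg 2, non-Tg 3 and Tg 7). For the genes described here 1 liver stood apart from the other 5. Tg 6 had the highest signal for 21 of the 36 members, against 16.65% of all genes tested. It lay more than 1 log2 unit above the next mouse for 6 members and for 0.535% of all genes, while no other mouse did so for any member. Results that rest on it are therefore given with and without it. In bulk liver, more cells of a type and more RNA per cell cannot be told apart.

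**Figure D1:**
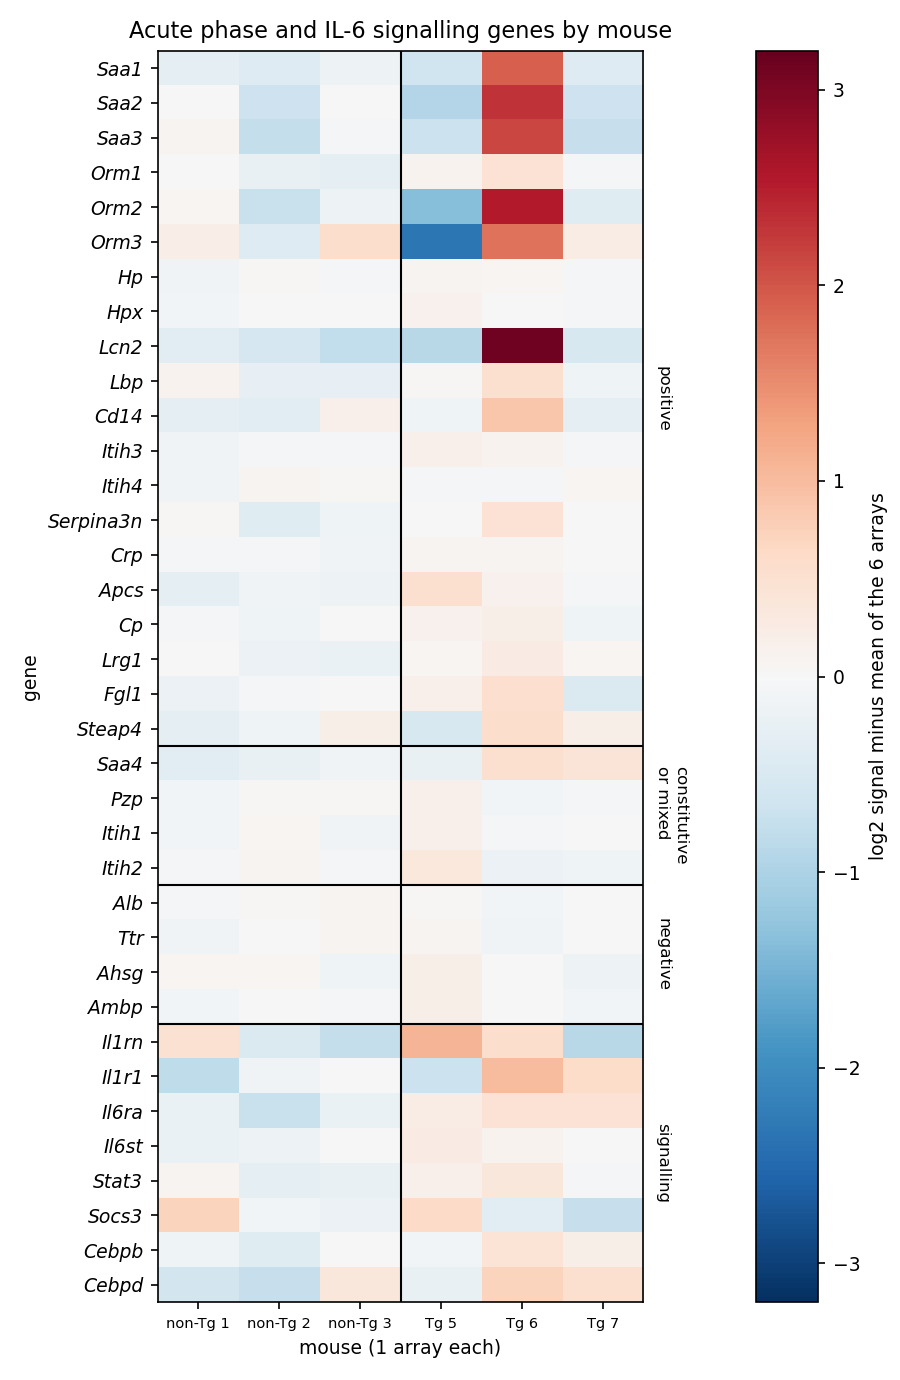
Log2 signal of the 36 measured genes (rows, by role) in the 6 mice (columns), each gene relative to its mean over the 6 arrays; red is above the mean and blue below. The Tg 6 column is red for Saa1, Saa2, Saa3, Orm2, Orm3 and Lcn2, while the rows of the negative acute phase genes are nearly blank.

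No member passed the test over all genes. With limma, 2 of 12705 genes were called higher in Tg livers (0.0157%) and 0 lower (0%). The transgene Retnla is 1 of the 2 (limma adjusted p = 4.07e-07), and neither is a member. The lowest limma adjusted p of a member was 0.653. At an unadjusted limma p under 0.05 there were 6 of 36 members, all higher in Tg livers, where 2.93% of all genes were higher and 3.12% lower by this rule. They were Il6ra, Orm1, Lrg1, Apcs, Saa4 and Cebpb. The values of the 2 groups did not overlap, with Tg above non-Tg, for 6 members (Itih3, Crp, Apcs, Lrg1, Il6ra and Il6st), against 6.04% of all genes, and with Tg below non-Tg for 0 members, against 5.64%. By sign alone 31 of 36 members were higher in Tg livers, with a median log2 difference of 0.25, beside 52.05% of all genes and a median of 0.01. With each array centred on its median, which puts the median of all genes at -0.06, 26 of 36 members were higher with a median of 0.18. Without Tg 6 the count was 25 of 36 and the median 0.08, 6 members had groups that did not overlap (11.04% of all genes), and 2 stood higher at an unadjusted limma p under 0.05, Apcs and Il6ra (1.96% of all genes), while Saa2 stood lower. The count of members higher at that p also depended on other mice: it was 10 without Tg 5 (2.70% of all genes), 12 without Tg 7 (4.53%), 2 without non-Tg 2 (2.12%), 5 without non-Tg 1 (4.40%) and 5 without non-Tg 3 (2.25%). Il6ra was among them each time, and without Tg 5 Socs3 stood lower at that p. Members without overlap numbered 10, 7 and 9 without non-Tg 1, 2 and 3, beside 13.68%, 9.71% and 10.04% of all genes, and 11 and 13 without Tg 5 and Tg 7, beside 10.79% and 13.92%. The share of all genes without overlap thus also rose whenever a mouse was left out.

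The serum amyloid A genes encode small apolipoproteins of high-density lipoprotein; Saa1 and Saa2 are the main acute phase forms in mouse liver, and Saa3 is made by macrophages and fat as well as liver. Saa1 had a log2 signal of 12.81, 12.70 and 12.94 in non-Tg 1, 2 and 3 and of 12.46, 15.02 and 12.69 in Tg 5, 6 and 7. The Tg 6 value was 4.21-fold above the next highest mouse, and the remaining 5 livers lay within a log2 unit of each other with Tg 5 the lowest. The log2 difference between groups was 0.57 ± 0.54 (SE; limma adjusted p = 0.865), and -0.25 without Tg 6. The second Saa1 probe set gave the same picture, at 15.09 in Tg 6 and 12.31 to 13.13 elsewhere.

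Saa2 stood at 10.70, 10.04 and 10.69 in the non-Tg livers and at 9.77, 13.03 and 10.05 in Tg 5, 6 and 7. Saa3 stood at 10.87, 10.02 and 10.71 and at 10.08, 12.92 and 10.04 in the same order. For both genes Tg 6 was 5.05-fold and 4.14-fold above the next mouse, and Tg 5 and Tg 7 lay near the bottom of the non-Tg range. The group differences of 0.48 ± 0.70 for Saa2 and 0.48 ± 0.65 for Saa3 (SE; limma adjusted p of 0.909 and 0.899) turned to -0.57 and -0.47 without Tg 6. Saa1 and Saa2 are near-identical genes, and the Saa2 probe set is of a type that can bind several related transcripts, so their signals may share RNA.

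Windows of the 250 bases before the transcript start were available for 29 of the 36 members, from the RefSeq table of build GRCm38.p6, in 33 windows since some genes have several starts. Those of the 5 genes with the widest gap between Tg 6 and the other livers are shown, with Il6ra, the member of lowest p, whose Tg 6 and Tg 7 signals were level. They run 5′ to 3′ on the gene's strand, and capitals mark matches on either strand to a STAT pattern, TTCNNNGAA, or a C/EBP pattern, TTNNGNAA, which may overlap.
Lcn2 (chr2:32387740-32387989, minus strand): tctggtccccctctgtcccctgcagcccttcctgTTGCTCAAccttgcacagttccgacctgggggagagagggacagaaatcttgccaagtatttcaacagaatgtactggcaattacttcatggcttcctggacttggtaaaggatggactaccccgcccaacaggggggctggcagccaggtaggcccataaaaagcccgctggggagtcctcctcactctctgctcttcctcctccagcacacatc
Orm2 (chr4:63362199-63362448, plus strand): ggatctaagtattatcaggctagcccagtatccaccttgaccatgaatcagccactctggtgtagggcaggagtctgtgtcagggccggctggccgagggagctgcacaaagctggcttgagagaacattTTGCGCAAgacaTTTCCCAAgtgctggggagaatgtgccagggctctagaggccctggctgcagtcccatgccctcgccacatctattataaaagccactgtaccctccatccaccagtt
Saa2 (chr7:46751583-46751832, plus strand): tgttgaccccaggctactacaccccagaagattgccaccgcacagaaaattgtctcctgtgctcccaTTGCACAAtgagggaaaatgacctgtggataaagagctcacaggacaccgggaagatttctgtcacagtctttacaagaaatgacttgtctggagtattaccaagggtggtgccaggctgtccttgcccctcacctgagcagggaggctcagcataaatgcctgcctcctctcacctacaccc
Saa1 (chr7:46742981-46743230, minus strand): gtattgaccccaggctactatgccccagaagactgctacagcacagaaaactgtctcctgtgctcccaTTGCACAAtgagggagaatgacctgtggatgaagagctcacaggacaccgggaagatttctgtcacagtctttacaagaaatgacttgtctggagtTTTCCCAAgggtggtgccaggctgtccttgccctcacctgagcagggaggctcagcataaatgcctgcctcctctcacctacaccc
Saa3 (chr7:46715677-46715926, minus strand): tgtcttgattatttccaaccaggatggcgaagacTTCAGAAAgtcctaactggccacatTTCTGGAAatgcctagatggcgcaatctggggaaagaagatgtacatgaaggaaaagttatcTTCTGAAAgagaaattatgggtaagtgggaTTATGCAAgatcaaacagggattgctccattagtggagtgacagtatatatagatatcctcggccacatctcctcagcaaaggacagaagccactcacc
Il6ra (chr3:89913197-89913446, minus strand): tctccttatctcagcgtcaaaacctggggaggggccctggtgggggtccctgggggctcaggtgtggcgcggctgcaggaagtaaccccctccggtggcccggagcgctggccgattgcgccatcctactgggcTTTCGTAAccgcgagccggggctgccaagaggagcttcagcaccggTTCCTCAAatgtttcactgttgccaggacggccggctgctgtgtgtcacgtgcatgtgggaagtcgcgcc

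The STAT pattern was found in 4 of the 33 member windows, those of Apcs, Itih4, Socs3 and Steap4, and in 7.02% of all 32851 windows of that length. None of the 6 windows shown holds it. The C/EBP pattern, a looser one, was found in 24 of the 33 member windows and in 36.85% of all windows. In Saa1 and Saa2 the match TTGCACAA begins at -182 and -183 from the start, and Orm2 holds TTGCGCAA at -120. An NF-kappaB pattern, GGGANNTTC, was found in 0 of the 33 windows and in 3.23% of all. The Saa1 and Saa2 windows shared 238 of 250 aligned bases, whereas Saa1 and Saa3 shared 154. These are matches of letters in a short window, and no binding was measured.

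The orosomucoids are acid glycoproteins that carry drugs and lipids in plasma. Orm1 was bright and differed little, at 14.78, 14.56 and 14.52 in the non-Tg and 14.90, 15.25 and 14.77 in the Tg livers. Tg 7 lay just below non-Tg 1, so the groups overlapped, and the log2 difference was 0.35 ± 0.13 (SE; limma adjusted p = 0.787), or 1.28-fold with a 95% confidence interval from 1.05 to 1.55. Without Tg 6 it was 0.22.

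Orm2 spread far more, at 9.32, 8.53 and 9.09 in the non-Tg livers and 7.87, 11.79 and 8.87 in the Tg livers. Tg 6 was 5.55-fold above the next mouse and Tg 5 was the lowest of all. The difference of 0.53 ± 0.79 (SE; limma adjusted p = 0.909) became -0.61 without Tg 6. Orm3 had both extremes in the Tg group, 5.62 in Tg 5 and 9.67 in Tg 6, around 7.53 to 8.50 in the non-Tg livers and 8.17 in Tg 7, so its difference of -0.24 ± 0.81 (SE; limma adjusted p = 0.970) turned to 0.86 without Tg 5 and to -1.16 without Tg 6. Orm2 and Orm3 share 219 of the 250 bases before their starts and may also share probe signal.

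Lcn2 encodes lipocalin 2, which binds bacterial siderophores and is made by hepatocytes in the acute phase and by neutrophils. Its log2 signal was 9.04, 8.86 and 8.60 in the non-Tg livers and 8.51, 12.51 and 8.88 in Tg 5, 6 and 7. The 11.1-fold distance between Tg 6 and the next mouse, non-Tg 1, was the widest of the 36 members. Lcn2 also had the largest group difference of the 36, 1.13 ± 0.84 (SE; limma adjusted p = 0.841), which turned to -0.14 without Tg 6. The neutrophil list, of which 11 of 12 genes had a probe set and 7 were bright enough to test, summed to 1105 in Tg 6, 531 to 1051 in the other Tg livers and 771 to 987 in the non-Tg livers on the linear scale. Tg 6 was the highest mouse for 2 of the 7 tested genes, Elane at 7.10 and Csf3r at 8.16, and not for the other 5, which include the granule genes S100a8 and S100a9; Camp and Ltf were below the filter. Its part in the Lcn2 signal was not tested.

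**Figure D2:**
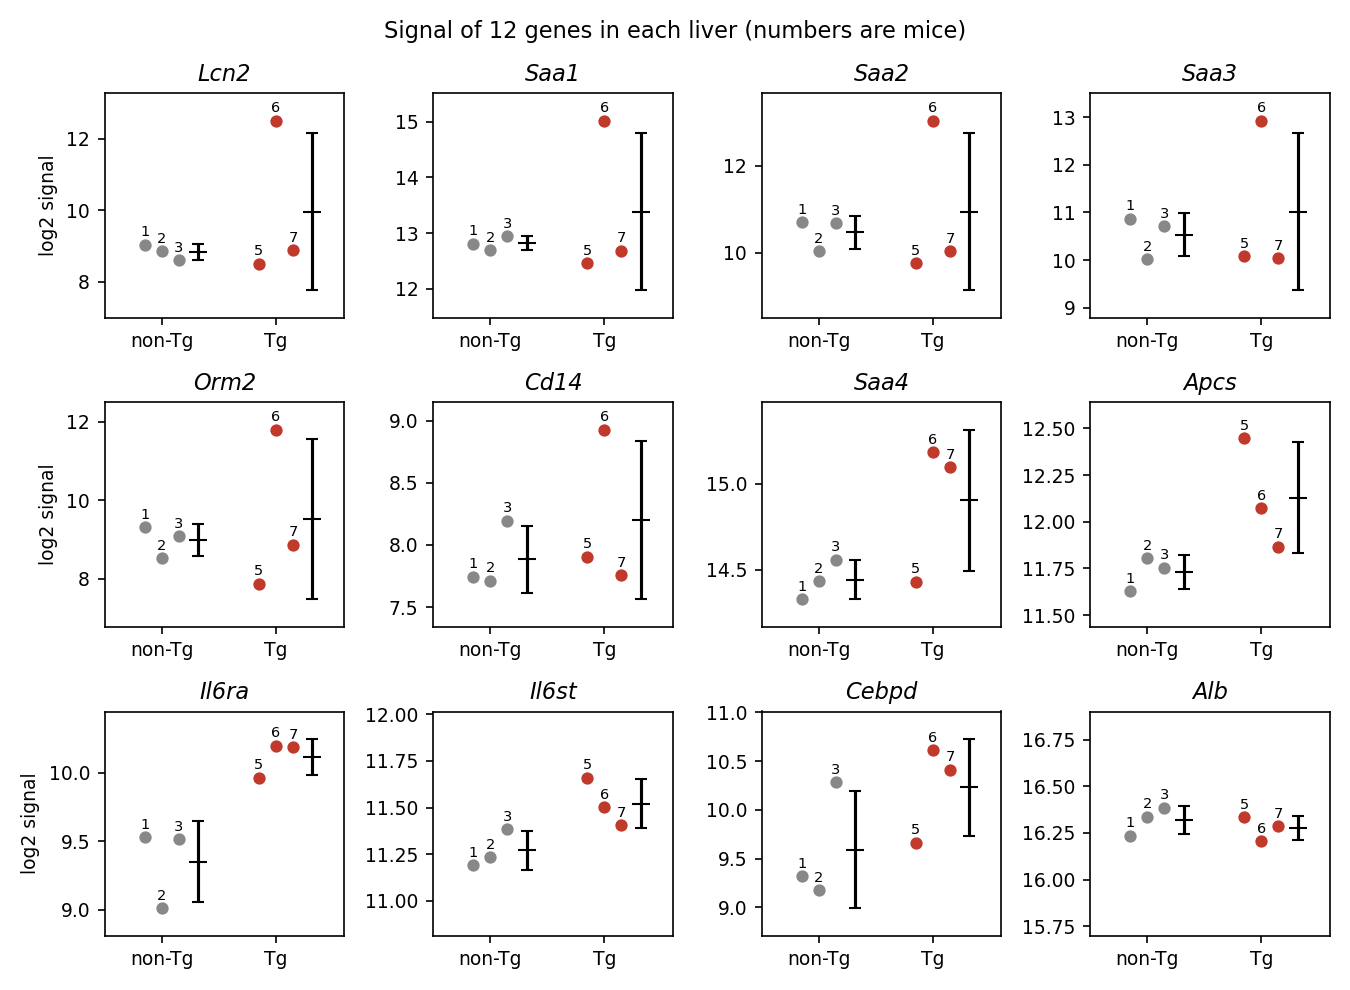
Log2 signal of 12 genes in each liver (points, numbered by mouse), with the mean and SD of the 3 mice of each group beside them. Tg 6 lies far above the other 5 mice for Lcn2, Saa1, Saa2, Saa3 and Orm2, while for Il6ra all 3 Tg mice lie above all 3 non-Tg mice and for Alb the groups overlap.

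Cd14 and Lbp, which handle bacterial lipopolysaccharide, were also highest in Tg 6, by less. Cd14, the lipopolysaccharide coreceptor found on macrophages and induced in hepatocytes, was at 7.75, 7.71 and 8.20 in the non-Tg livers and 7.91, 8.93 and 7.76 in the Tg livers. Only Tg 6 lay above the non-Tg range, and the difference of 0.31 ± 0.32 (SE; limma adjusted p = 0.872) became -0.05 without it. Lbp, the plasma protein that hands lipopolysaccharide to Cd14, was at 12.83, 12.45 and 12.44 and at 12.74, 13.23 and 12.57, a difference of 0.27 ± 0.18 (SE; limma adjusted p = 0.826), or 0.08 without Tg 6. A further, dimmer Lbp probe set gave -0.11.

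Among the protease inhibitors, Serpina3n, a homologue of human antichymotrypsin, stood at 12.88, 12.44 and 12.71 in the non-Tg and 12.85, 13.31 and 12.84 in the Tg livers. Tg 5 and Tg 7 lay inside the non-Tg range, and the difference was 0.32 ± 0.15 (SE; limma adjusted p = 0.807), or 0.17 without Tg 6. Itih3 and Itih4 encode heavy chains of the inter-alpha-inhibitor family. Itih3 differed by 0.16 ± 0.08 (SE), with the Tg livers (14.42 to 14.64) just above the non-Tg livers (14.35 to 14.42), and Itih4 by -0.02 ± 0.08 (SE).

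Apcs and Lrg1 did not overlap between groups. Apcs encodes serum amyloid P, a pentraxin and a major acute phase protein of mice. It stood at 11.63, 11.81 and 11.75 in the non-Tg livers and 12.45, 12.07 and 11.87 in Tg 5, 6 and 7. Every Tg liver lay above every non-Tg liver and Tg 5 was the highest; the difference was 0.40 ± 0.15 (SE; limma adjusted p = 0.787), and 0.43 without Tg 6 but 0.24 without Tg 5. Lrg1, a secreted leucine-rich glycoprotein induced by IL-6, stood at 14.30, 14.13 and 14.09 and at 14.37, 14.56 and 14.36. The groups did not overlap either, with a difference of 0.26 ± 0.09 (SE; limma adjusted p = 0.787), or 0.19 without Tg 6. Both had an exact two-sided permutation p of 0.1, below which a design of 3 against 3 cannot go. Their differences were 0.63 and 0.16 in the lower bioC set and 0.09 and 0.25 in the higher one.

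Of the remaining positive members, Crp, Hp, Hpx and Cp varied little between livers, and Fgl1 and Steap4 varied more. Crp, the other pentraxin and a minor acute phase protein in mice, differed by 0.12 ± 0.08 (SE) with no overlap (14.19 to 14.30 against 14.09 to 14.17). Hp and Hpx, which bind free haemoglobin and haem, differed by 0.07 ± 0.07 and 0.06 ± 0.07, and the copper oxidase Cp by 0.12 ± 0.09. Among the further, dimmer Cp probe sets, some gave -0.405 and -0.318 and the rest 0.146 to 0.429. Centring each array on its median turned the differences of Hp and Hpx to -0.003 and -0.02. Fgl1, a secreted fibrinogen-like protein, differed by 0.15 ± 0.21 and ran from 12.52 in Tg 7 to 13.51 in Tg 6. The metalloreductase Steap4 differed by 0.16 ± 0.24 and ran from 10.82 in Tg 5 to 11.89 in Tg 6. Without Tg 6 both Fgl1 and Steap4 stood at -0.08. The second, dimmer Steap4 probe set gave 0.37. On it Tg 5 and Tg 7 stood at 9.89 and 10.08, against 9.69 to 10.02 in the non-Tg livers, so the change of sign rests on the brighter probe set. The 95% confidence intervals of the fold change ran from 0.94 to 1.18 for Hp, 0.93 to 1.17 for Hpx and 0.94 to 1.26 for Cp.

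Counted together, 18 of the 20 positive members were higher in Tg livers, with a median log2 difference of 0.26. Without Tg 6 the count was 11 of 20 and the median 0.03. Tg 6 had the highest signal for 15 of the 20, Tg 5 for 4 and non-Tg 2 for 1. Within the lower bioC set, which holds Tg 6, 19 of 20 were higher with a median of 0.28, and within the higher set, which holds Tg 7, 11 of 20 with a median of 0.04. With the sets as a block the median was 0.17.

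**Figure D3:**
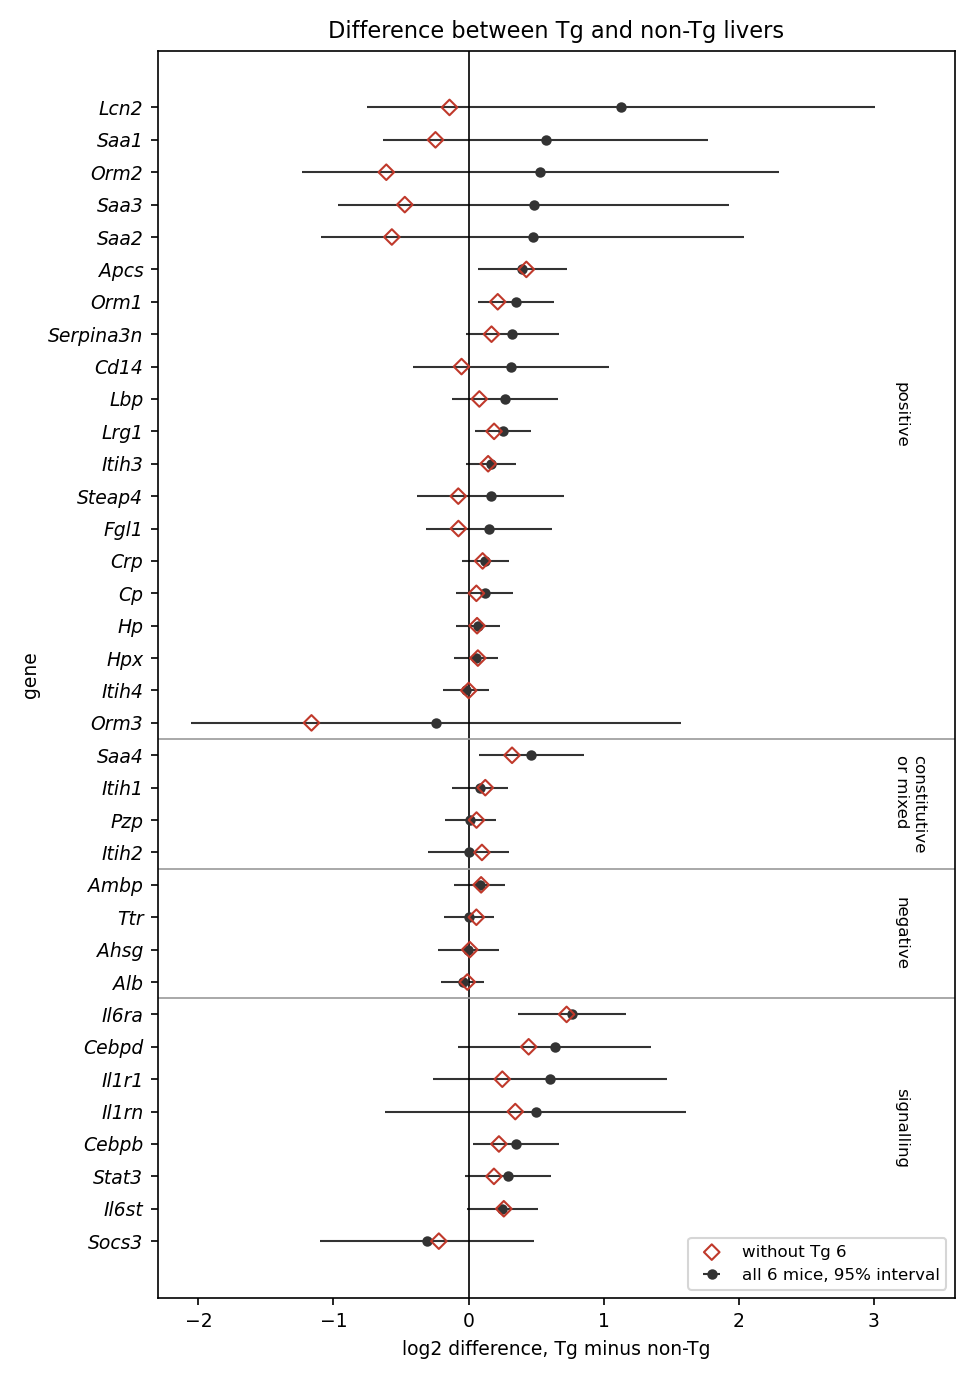
Log2 difference between Tg and non-Tg livers for each gene, by role, with limma's 95% confidence interval over the 6 mice (filled) and the value without Tg 6 (open). The Saa1, Saa2, Saa3, Orm2 and Lcn2 estimates move from above 0 to below 0 without Tg 6, while Il6ra moves from 0.77 to 0.73.

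Of the constitutive or mixed members, Saa4 stood out. It encodes the serum amyloid A form that is made without inflammation. Its signal was 14.33, 14.43 and 14.56 in the non-Tg livers and 14.43, 15.18 and 15.10 in Tg 5, 6 and 7. Unlike Saa1, it was high in both Tg 6 and Tg 7, while Tg 5 lay inside the non-Tg range on this probe set. On the second Saa4 probe set the groups did not overlap. There Tg 5 was at 13.20, and the non-Tg livers were at 12.89 to 13.05. On the probe set that stood for Saa4 the difference was 0.46 ± 0.17 (SE; limma adjusted p = 0.787), or 1.38-fold with a 95% confidence interval from 1.05 to 1.80. It was 0.32 without Tg 6, 0.70 without Tg 5 (limma adjusted p = 0.0563), 0.48 and 0.60 within the bioC sets, and 0.72 on the second Saa4 probe set. Pzp, the mouse protease inhibitor related to alpha-2-macroglobulin, differed by 0.01 ± 0.08, and the heavy chain genes Itih1 and Itih2 by 0.09 ± 0.09 and 0.00 ± 0.13 (SE). The Pzp and Itih2 signs changed between alternative settings.

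The negative acute phase genes were level between groups. Alb, albumin, was at 16.24, 16.34 and 16.39 in the non-Tg and 16.33, 16.21 and 16.29 in the Tg livers, a difference of -0.04 ± 0.07 (SE; limma adjusted p = 0.913). Ttr, the thyroxine and retinol carrier transthyretin, was at 16.04, 16.19 and 16.26 and at 16.26, 16.06 and 16.19, a difference of 0.00 ± 0.08 (SE; limma adjusted p = 0.997). The other Ttr probe sets gave -0.046, -0.086 and 0.012. For Alb and Ttr, on the probe sets that stood for them, the lowest signals were those of non-Tg 1 and Tg 6, both in the lower bioC set. Tg 5, also in that set, was not low, at 16.33 and 16.26.

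Ahsg, the glycoprotein fetuin-A, stood at 15.87, 15.86 and 15.65 and at 15.98, 15.77 and 15.62, a difference of -0.00 ± 0.10 (SE; limma adjusted p = 1.00). Ambp, the precursor of alpha-1-microglobulin and bikunin, stood at 15.55, 15.64 and 15.57 and at 15.82, 15.65 and 15.54, a difference of 0.08 ± 0.08 (SE; limma adjusted p = 0.872). The 95% confidence intervals of the 4 fold changes lay between 0.85 and 1.21. In Tg 6, where the Saa genes were high, these genes lay between -0.16 and -0.03 log2 units from the mean of Tg 5 and Tg 7. Only 8 to 81 probe sets on an array were brighter than any of the 4, and whether so bright a probe set still follows its RNA was not tested.

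Set against each other, the positive members exceeded the negative ones by 0.26 in median log2 difference. Without Tg 6 this became -0.004. The median deviation of the positive members from their 6-array means was 0.50 in Tg 6, 0.02 in Tg 5, -0.06 in Tg 7 and -0.20 to -0.06 in the non-Tg mice. For the negative members it was -0.06 in Tg 6 and -0.07 to 0.14 in the other mice.

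On the probe sets that stood for them, both chains of the IL-6 receptor were higher in every Tg liver than in any non-Tg liver. The IL-1 receptor was uneven among the Tg mice. Il6ra, the binding chain of the IL-6 receptor, was at 9.53, 9.01 and 9.51 in the non-Tg livers and 9.96, 10.20 and 10.19 in the Tg livers, or 9.35 ± 0.30 against 10.12 ± 0.13 (SD, n = 3 each). The lowest Tg liver, Tg 5, exceeded the highest non-Tg liver, and Tg 6 and Tg 7 were level. The difference was 0.77 ± 0.18 (SE), or 1.70-fold with a 95% confidence interval from 1.29 to 2.24, with a limma p of 0.00172, the lowest of the 36 members, and an adjusted p of 0.653. It was 0.73 without Tg 6, 0.55 and 0.93 within the lower and higher bioC sets, 0.33 on the second Il6ra probe set, and between 0.55 and 0.86 over 17 alternative settings, whose adjusted p ran from 0.407 to 0.995. The exact permutation p was 0.1. On the second Il6ra probe set the groups overlapped, with Tg 7 at 8.408 and non-Tg 3 at 8.415.

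Il6st, the gp130 chain, stood at 11.19, 11.24 and 11.39 in the non-Tg and 11.66, 11.50 and 11.40 in the Tg livers. The groups did not overlap, though Tg 7 and non-Tg 3 nearly met, and the difference was 0.25 ± 0.12 (SE; limma adjusted p = 0.807). Without Tg 5 it was 0.13. The 3 further Il6st probe sets gave 0.37, 0.11 and 0.14. On the first of these Tg 7 and non-Tg 1 were level at 8.06, and on the second the groups did not overlap. On the last Tg 7 was the lowest of all mice, at 9.51. Il1r1, the signalling receptor for IL-1, was at 9.54, 10.24 and 10.37 and at 9.67, 11.36 and 10.94. Tg 6 and Tg 7 were the highest and Tg 5 was the second lowest, and the difference of 0.60 ± 0.39 (SE; limma adjusted p = 0.826) became 0.25 without Tg 6, 0.35 without non-Tg 1 and 1.10 without Tg 5 (limma adjusted p = 0.384).

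Il1rn, the secreted antagonist of that receptor, was at 8.32, 7.36 and 7.09 in the non-Tg livers and 8.92, 8.39 and 6.95 in the Tg livers. Its 3 highest signals were those of Tg 5, Tg 6 and non-Tg 1, which are the arrays of the lower bioC set. The difference of 0.50 ± 0.50 (SE; limma adjusted p = 0.870) became 0.03 with the sets as a block, ran from 0.08 without Tg 5 to 1.07 without Tg 7 when mice were left out, and the 2 other probe sets gave -0.09 and -0.20.

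The transcription factors leaned higher in Tg livers by small steps. Stat3 stood at 12.07, 11.70 and 11.76 in the non-Tg and 12.14, 12.34 and 11.92 in the Tg livers, a difference of 0.29 ± 0.14 (SE; limma adjusted p = 0.812), or 0.19 without Tg 6. Non-Tg 1 lay above Tg 7, so the groups overlapped. The 2 further Stat3 probe sets past the filter gave 0.31 and 0.29.

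Cebpb, the C/EBP factor long known as NF-IL6, was at 12.99, 12.74 and 13.12 and at 13.05, 13.56 and 13.30, a difference of 0.35 ± 0.14 (SE; limma adjusted p = 0.807), with 0.64 on its second probe set. Cebpd, a family member induced early in the acute phase, was at 9.32, 9.18 and 10.29 and at 9.66, 10.61 and 10.41, a difference of 0.64 ± 0.32 (SE; limma adjusted p = 0.815). For both genes, on the probe sets that stood for them, Tg 6 and Tg 7 were the 2 highest livers and Tg 5 lay inside the non-Tg range. On the second Cebpb probe set the groups did not overlap. There Tg 5 was the second highest liver, at 12.30, and Tg 7, at 12.05, nearly met non-Tg 1, at 12.03. On the probe sets that stood for them, Cebpb and Cebpd differed by 0.22 and 0.45 without Tg 6, and Cebpd by 0.98 without non-Tg 3.

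Socs3 is a direct Stat3 target that blocks gp130 signalling. Its signal was 9.56, 8.76 and 8.67 in the non-Tg livers and 9.45, 8.51 and 8.10 in the Tg livers, so that Tg 6 was the second lowest. The difference was -0.31 ± 0.35 (SE; limma adjusted p = 0.880), while the other Socs3 probe sets gave 0.10 and 0.24 and the mean of the 3 gave 0.01. On both of those Tg 5 was the highest mouse, at 9.41 and 9.15, and Tg 6 the second highest, at 8.43 and 8.45, so the low place of Tg 6 rests on 1 of 3 probe sets. Leaving out each mouse in turn moved the difference between -0.69 (without Tg 5) and -0.01 (without Tg 7), with -0.03 without non-Tg 1. Over the 8 signalling genes, 7 were higher in Tg livers with a median of 0.42, and without Tg 6 again 7, with a median of 0.26.

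Other genes of the pathway gave few differences. Of 44 further cytokines, receptors and signal transducers, 34 were bright enough to test; 16 were higher and 18 lower in Tg livers, with a median of -0.01, and 0 passed in either direction. At an unadjusted limma p under 0.05 there were 2 higher, the Stat3 inhibitor Pias3 at 0.50 ± 0.21 and the tumour necrosis factor receptor Tnfrsf1b at 0.46 ± 0.20, and 1 lower, the growth hormone feedback gene Socs2 at -1.03 ± 0.42 (SE; limma adjusted p = 0.807 for each). By this rule 2.93% of all genes were higher and 3.12% lower. Socs2 was lowest in Tg 7, at 8.45, against 10.07 to 10.86 in the other mice. Il6 itself lay below the filter in all 6 livers, at 2.58 to 3.05 in non-Tg and 4.30 to 5.11 in Tg mice, under the filter's 5.63, so its difference of 1.71 ± 0.86 (SE) rests on signals near background.

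Of 24 further genes read for the acute phase outside the list, 21 were tested. Of these 10 were higher and 11 lower, with a median of 0.00 and 0 passing in either direction. They mix positive and negative acute phase genes with other liver genes such as Igf1 and Cyp3a11, so the median does not give the direction of either role. The fibrinogen chains Fga, Fgb and Fgg differed by 0.12, 0.03 and 0.00, and the negative acute phase genes Rbp4 and Apoa1 by -0.02 and 0.03. The 3 genes with an unadjusted limma p under 0.05 were all lower, where 3.12% of all genes were lower by this rule. They were the pantetheinase Vnn1 at -1.34 ± 0.32, the mannose-binding lectin Mbl1 at -0.33 ± 0.10 and the corticosteroid carrier Serpina6 at -0.33 ± 0.15 (SE; limma adjusted p from 0.653 to 0.807).

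Glucocorticoid target genes were read beside the members. Of 15 listed, 14 were tested, and 13 were higher in Tg livers with a median of 0.79. Over all genes 0 passed. At an unadjusted limma p under 0.05, 8 were higher and 1 lower, where 2.93% of all genes were higher and 3.12% lower. The lower one was Klf9, at -0.39 ± 0.13 (SE; limma adjusted p = 0.7755). Tat, the glucocorticoid-induced tyrosine aminotransferase, was at 13.74, 13.50 and 14.36 in the non-Tg livers and 14.51, 15.33 and 15.10 in the Tg livers, a difference of 1.12 ± 0.24 (SE; limma adjusted p = 0.468). The cell cycle inhibitor gene Cdkn1a and the metallothioneins Mt1 and Mt2 differed by 3.70, 2.16 and 2.21 (limma adjusted p from 0.378 to 0.653). Cdkn1a was at 5.54, 4.06 and 5.70 in the non-Tg livers, around or under the signal level of the filter. In Tg 5, 6 and 7 it was at 7.38, 10.44 and 8.57. The size of the Cdkn1a difference therefore rests on non-Tg signals near background. Among the 14 tested, the groups did not overlap, with Tg above non-Tg, for Cdkn1a, Mt1, Mt2, Tat and Per1. Over all genes this held for 6.04%. All of these but Per1 are named here for their small p, so their lack of overlap is no separate result. Klf9 did not overlap either, with Tg below non-Tg, as for 5.64% of all genes. Tg 6 had the highest signal for 11 of the 14 genes, and without it 13 were still higher, with a median of 0.49.

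**Figure D4:**
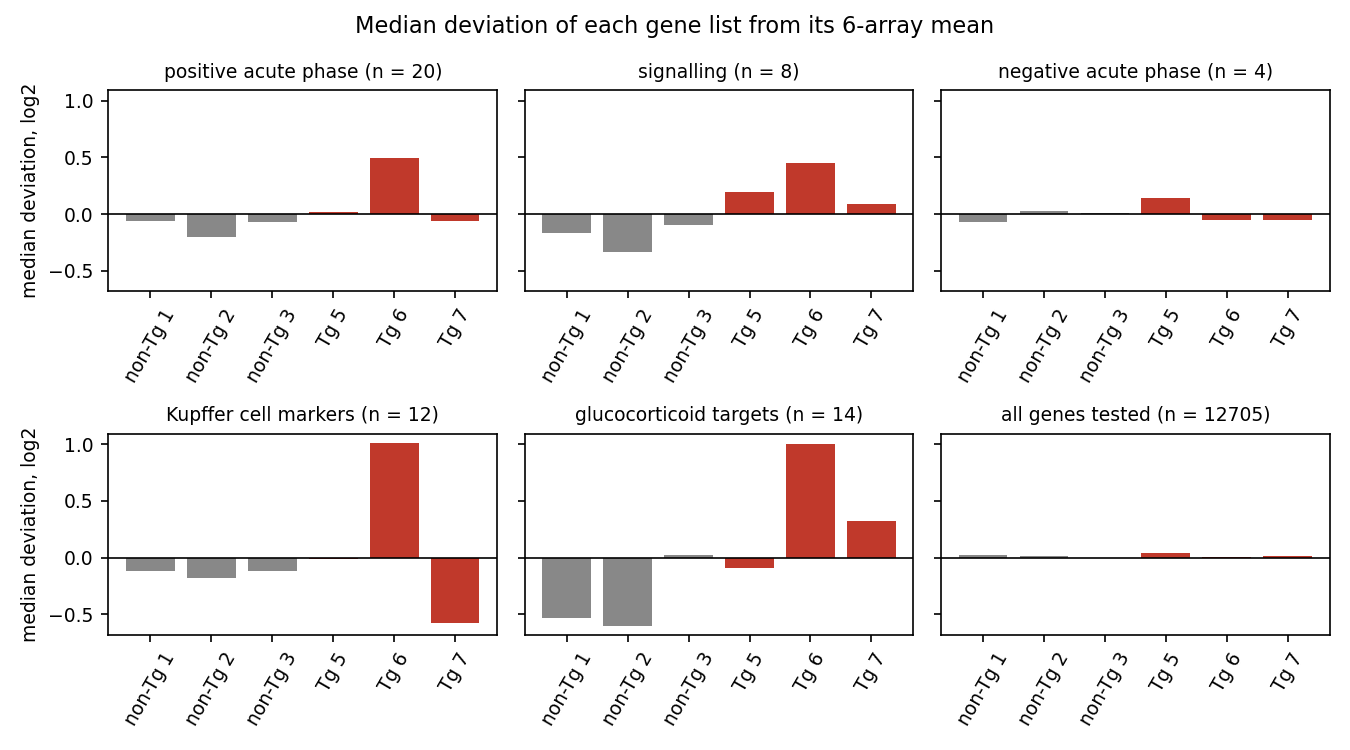
Median deviation from the 6-array mean, in log2 units, for each gene list (panels) in each mouse (bars; grey non-Tg, red Tg). Tg 6 has the tallest bar for the positive acute phase genes (0.50), the signalling genes (0.45), the Kupffer cell markers (1.01) and the glucocorticoid targets (1.00).

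Markers of resident liver macrophages were highest in Tg 6, as were most positive acute phase genes. In Tg 7 the median deviation was -0.57 for the markers and -0.06 for the positive members. In Tg 5 it was -0.01 and 0.02 in the same order. Tg 5 was the lowest mouse for 6 of the 20 positive members and for 0 of the 12 markers. Tg 7 was the lowest for 2 of the 20 positive members. For the 6 members more than 1 log2 unit above the next mouse in Tg 6, the deviations ran from -0.73 to 0.23 in Tg 7. In Tg 5 they ran from -2.31 to -0.64. All 12 Kupffer cell and macrophage markers on the list had their highest signal in Tg 6, by 0.40 to 1.73 log2 units over the next mouse, and 10 of the 12 had their lowest in Tg 7. The scavenger receptor Marco was at 10.06 in Tg 6 and 6.18 to 8.32 in the other mice, and the Kupffer cell lectin Clec4f at 12.39 and 11.33 to 11.76. The summed linear signal of the list was 64710 in Tg 6, 23850 and 35349 in Tg 7 and Tg 5, and 30242 to 33592 in the non-Tg livers. Without Tg 6 the median difference of the list was -0.18, against 0.29 with it. The hepatocyte list summed to 494840 in Tg 6 and to 503169 to 555338 in the other mice. Saa3, Cd14, Lcn2 and Il1rn can be made by macrophages as well as hepatocytes, and the part of these cells in the Tg 6 signals was not tested. The 6 monocyte and dendritic cell markers with a probe set summed to 678 in Tg 6 and 325 to 369 elsewhere. Other marker sums moved with the groups: erythroid genes summed to 5139 to 7122 in Tg and 3917 to 4658 in non-Tg livers, and their part in the member differences was not tested.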

How the data were processed

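Livers of 6 mice were measured on Affymetrix mouse genome arrays, 1 array each. The deposited table of the authors gives log2 signals for 45101 probe sets. GCOS is named in the submitters' processing notes, without a version, algorithm or scaling target. The antilogged signals had the same trimmed mean on every array, so the arrays had been scaled to a common level. Detection calls were not used, and precision is limited by having 3 arrays a group; whether mice came from separate litters is not stated, so p-values measure the spread between these samples.

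The members, gene lists and rules were chosen with earlier results of these data known. The 64 control probe sets were left out, and 34945 of the others carry 1 gene symbol in GEO's platform annotation. Probe sets were kept where their mean exceeded the 40th percentile (5.63), and the one with the highest mean stood for a gene. Groups were compared with limma 3.58.1 in R 4.3.3 (lmFit, eBayes with an intensity trend, two-sided, Benjamini-Hochberg over 12705 genes, threshold 0.05; 9.61 degrees of freedom after moderation), which was tested on simulated data. Lists are described by counts and medians and not tested. Every measured member is named, with values in each mouse for the negative and signalling genes and the 12 others of largest difference; of other pathway lists, up to 4 genes of smallest p under 0.05, with Il6. Hp, Hpx, Fga, Fgb, Fgg, Rbp4, Apoa1, Klf9, Per1, Marco, Clec4f, Elane, Csf3r, S100a8 and S100a9 are also quoted, chosen after their values were seen. Promoter windows come from RefSeq and were aligned with Biopython 1.88. Alternatives were quantile normalization, median centring, 16 or 64 added before the log, no filter or a 60th percentile one, the mean of a gene's probe sets, other moderation, array weights, the bioC sets as a block, and leaving out each mouse.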

Additional observations from a re-analysis of the deposited data

How the results depend on the processing

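No paired analysis was possible because the sources used here give no pairing of mice between the 2 groups. In all 17 alternative settings run, 0 of the 36 members passed the limma test over all genes. The count of genes past the threshold, 2, was 5 with arrays centred on the median, 4 and 6 with 16 and 64 added before the log, 4 with robust moderation and 4 with the bioC sets as a block. Leaving out each mouse in turn put the median of the positive members between 0.029 (without Tg 6) and 0.41 (without Tg 7), that of the signalling members between 0.26 (without Tg 6) and 0.43, and that of the negative members between -0.075 and 0.034. The ranges of single genes whose sign changed there were -0.25 to 1.04 for Saa1, -0.57 to 1.07 for Saa2, -0.47 to 0.97 for Saa3, -0.61 to 1.35 for Orm2, -1.16 to 0.86 for Orm3, -0.14 to 1.86 for Lcn2, -0.052 to 0.53 for Cd14, -0.075 to 0.42 for Fgl1, -0.076 to 0.46 for Steap4, -0.066 to 0.059 for Pzp, -0.17 to 0.099 for Itih2, -0.077 to 0.058 for Ttr, -0.095 to 0.084 for Ahsg and -0.073 to 0.020 for Itih4. Centring on the median, which shifts all genes to a median of -0.06, gave -0.003 for Hp, -0.017 for Hpx, -0.061 for Pzp, -0.073 for Itih2 and -0.070 for Ttr. Array weights gave 0.099 for Orm3, -0.012 for Pzp, -0.040 for Itih2, -0.028 for Ttr and 0.004 for Ahsg. Quantile normalization put Itih4 at 0.023. With the bioC block Itih4 was at 0.026 and Itih2 at -0.017. The mean of kept probe sets put Ttr at -0.029 and Socs3 at 0.009. The cause of these changes was not tested. With 3 mice a group, a member that did not pass is not shown to be unchanged.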
